A study of Mus musculus with 37 samples.

Results

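The Lachnospiraceae of mouse stool outside 6 named genera were described across prenatal alcohol exposure and sex. Members were all rows of the deposited taxonomy assigned to the family Lachnospiraceae whose genus was not Lachnospiraceae_NK4A136_group, Blautia, Lachnoclostridium, Hungatella, Robinsoniella or Anaerostipes. Rows with an empty genus ("unclassified" here) or a genus given as uncultured were kept in. The rule selected 1190 of the 1539 Lachnospiraceae rows and of the 6100 rows in all, where each row is 1 amplicon sequence variant (ASV), a distinct 16S rRNA gene sequence. Members carried 25 genus labels, counting unclassified (616 variants) and uncultured (188 variants) as 1 each, and held 6.98% of all reads. The deposited tables identify variants by a code and hold no base sequence, so variants are named here by genus and by their rank in mean share over the libraries, with variant 1 as the most abundant.

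The V3–V4 region of the 16S rRNA gene was amplified from stool of adolescent C57Bl/6 mice and sequenced on an Illumina NovaSeq with 2 × 250 cycles. Dams of the exposed mice drank 10% ethanol for 10 days from the start of gestation and water afterwards (prenatal alcohol exposure, PAE), and control dams had water only. The labels name no ethanol other than that given to the dams. Of the 37 libraries, 11 were from control males, 7 from control females, 10 from males with PAE and 9 from females with PAE. All values are shares of the reads of a library, so fewer cells of a taxon, fewer 16S rRNA gene copies per cell and more reads of other taxa cannot be told apart. No source used here ties a mouse to its dam, litter or cage, so p-values measure the spread between libraries, some of which may come from littermates.

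Lachnospiraceae are anaerobic, mostly spore-forming Clostridia that ferment plant polysaccharides and other glycans in the large bowel, and many of them release butyrate or acetate. Roseburia and the Eubacterium xylanophilum group are known butyrate formers, Acetatifactor was first cultured from the mouse caecum, and Marvinbryantia includes acetogens, which build acetate from hydrogen and carbon dioxide or formate. Most mouse Lachnospiraceae have not been cultured, so reference taxonomies list them under code names such as A2, GCA-900066575, UCG-001 or FCS020, or leave the genus empty. ASF356 is a member of the altered Schaedler flora, a defined set of bacteria used to colonise laboratory mice.

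Library depth ranged from 102655 to 1813222 reads. A set of 9 libraries stood apart from the other 28 in the members' summed share. These were the libraries with any read of Robinsoniella, a genus outside the members: control females 3 and 10, PAE males 20 to 24 and PAE females 27 and 28. The members held 0.00526% to 0.198% of reads in these 9 and 3.82% to 19.9% in the other 28, and no library lay between. The whole family nevertheless held 13.1% to 22.9% of reads in the 9 libraries, against 12.9% to 34.4% in the others. In the 9 libraries the members were a median of 0.248% of the family's reads, against 45.0% in the other 28. The NK4A136 group was also low in the 9, at 0.0107% to 1.07% against 4.72% to 23.9% of reads, and the family's reads there belonged almost wholly to the other 5 genera set aside.

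**Figure D1:**
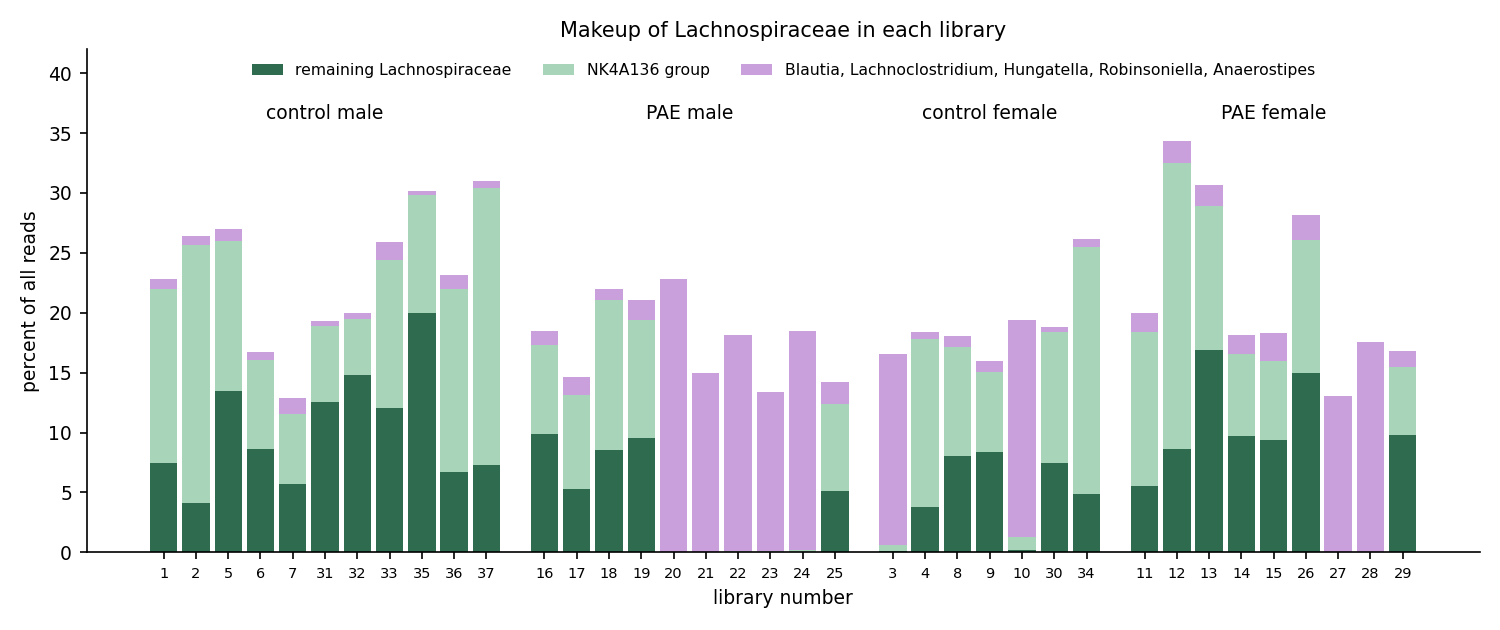
Share of all reads (percent, vertical axis) held by the remaining Lachnospiraceae (dark green), the NK4A136 group (light green) and 5 other genera (purple), stacked for each library (horizontal axis, library number) and grouped by exposure and sex. In libraries 3, 10, 20 to 24, 27 and 28 nearly the whole bar is purple, whereas in the other 28 the members hold 3.82% to 19.9% of reads.

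The library numbers ran in 4 blocks that never held both exposures: controls in 1 to 10 and 30 to 37, PAE in 11 to 19 and 20 to 29. The labels do not say what the numbers stand for, and a difference between such runs of numbers and a difference between exposures cannot be told apart. The main values are therefore given for all libraries and again without the 9 that stood apart.

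Few of the 1190 variants were shared among mice. A total of 959 variants had reads in 1 library only, and together these held 1.15% of member reads. By contrast, 53 variants had reads in 19 or more libraries and held 52.0% of member reads. Variant 7, an uncultured Lachnospiraceae, was the most widespread, with reads in 32 of 37 libraries. The 21 variants richest in reads sufficed for 50% of all member reads, and 854 variants had fewer than 10 reads over the whole series. Some labels consisted of single-library variants alone. All 131 variants of Lachnospiraceae_UCG-004 occurred in 1 library each, with 394 reads between them spread over 32 libraries. The 55 variants of the Eubacterium oxidoreducens group, together 292 reads, were likewise each seen in 1 library. The species column was empty for 697 members and read "uncultured_bacterium" for 428.

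**Figure D2:**
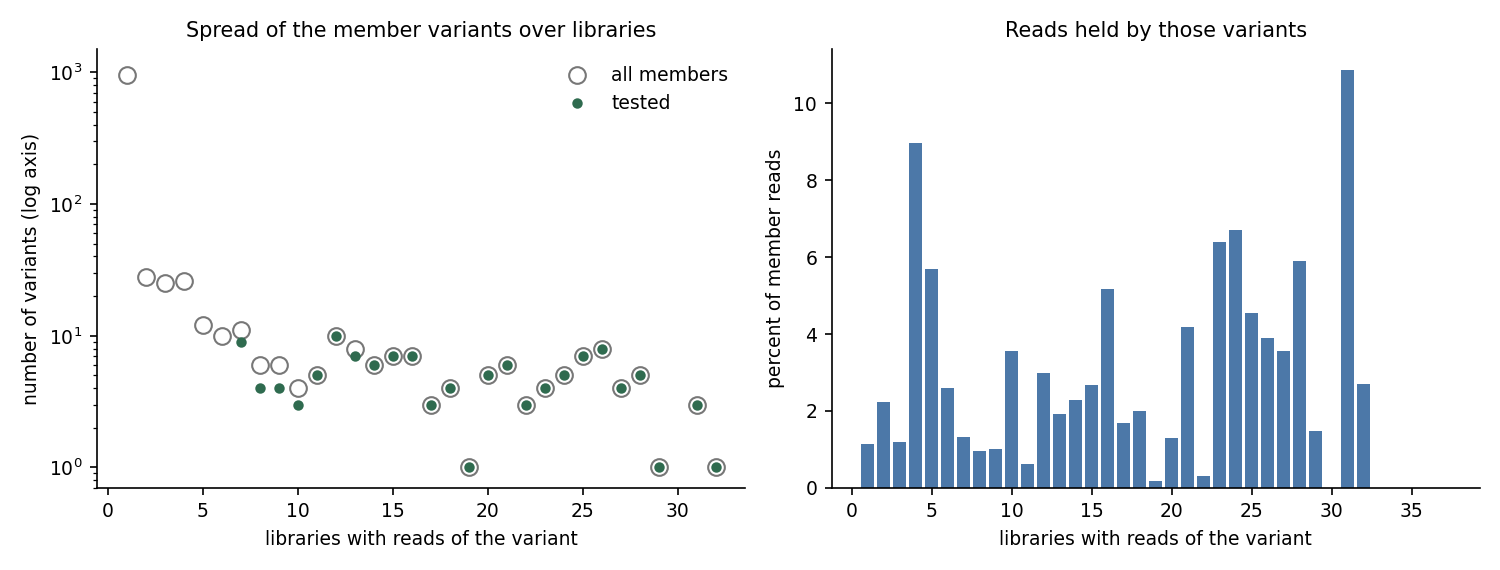
Left, the number of member variants (log axis) found in a given number of libraries (horizontal axis), with open circles for all members and filled dots for those tested; right, the percent of member reads those variants held. At 1 library there are 959 variants, none of them tested, and no variant reached more than 32 libraries.

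Over all libraries, control males had the highest mean summed share of the members and PAE females the highest median. The share ranged from 4.15% to 19.9% of reads in control males, with a median of 8.62% (mean 10.2% ± 4.72, SD, n = 11). In PAE males it ranged from 0.0101% to 9.91% with a median of 2.59% (3.86% ± 4.32, SD, n = 10). The PAE males formed a high and a low set of 5 libraries each: 16 to 19 and 25 lay between 5.12% and 9.91%, and 20 to 24 lay between 0.0101% and 0.0497%. Counting error was small beside these gaps, since the share in PAE male 20, the lowest of the males, rested on 69 of 683621 reads (exact binomial 95% interval 0.00785% to 0.0128%). Control females ranged from 0.117% to 8.37% with a median of 4.83% (4.70% ± 3.53, SD, n = 7). PAE females ranged from 0.00526% to 16.9% with a median of 9.34% (8.33% ± 5.81, SD, n = 9). The ranges of PAE and control overlapped in both sexes. No p-value is given for this sum, because the members were listed with results of these data known.

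Without the 9 libraries PAE females had the highest mean. The means of PAE and control moved closer together in males and slightly further apart in females. They were 10.2% ± 4.72 in control males (SD, n = 11) and 7.69% ± 2.31 in PAE males (n = 5). In females they were 6.51% ± 2.05 in controls (n = 5) and 10.7% ± 3.91 in PAE (n = 7). Control males numbered 1 to 10 averaged 7.87% ± 3.55 (SD, n = 5) and those numbered 30 to 37 averaged 12.2% ± 4.92 (n = 6). PAE males numbered 11 to 19 averaged 8.33% ± 2.10 (n = 4), and those numbered 20 to 29 averaged 0.879% ± 2.08 (n = 6). The low mean of PAE males thus came from a single run of library numbers.

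The number of member variants per library was also lowest on average in PAE males. After each library was thinned to 102655 reads, control males held 73 to 158 variants (mean 113 ± 29.4, SD, n = 11) and PAE males 4 to 115 (53.5 ± 50.9, n = 10). Control females held 23 to 146 (75.6 ± 44.9, n = 7) and PAE females 4 to 146 (91.1 ± 53.9, n = 9). The 9 libraries that stood apart held 4 to 27 variants, and the other 28 held 59 to 158. Without the 9, the means were 101 ± 15.4 in PAE males (n = 5), 95.8 ± 35.02 in control females (n = 5) and 116 ± 24.9 in PAE females (n = 7).

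**Figure D3:**
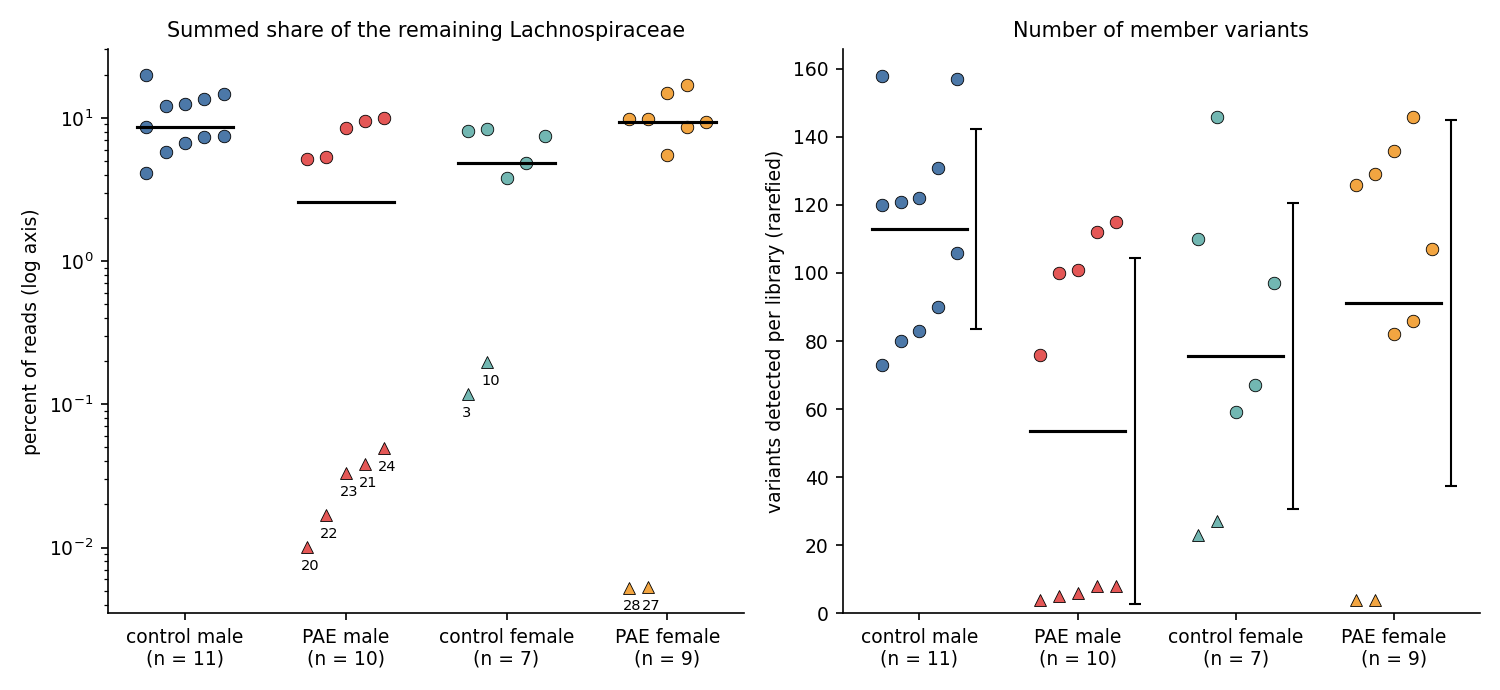
Left, the summed share of the members (percent of reads, log axis) in each library by group, with a bar at the group median; right, the number of member variants after thinning to 102655 reads, with a bar at the mean and an SD error bar beside it. Triangles are the 9 libraries with Robinsoniella reads, numbered in the left panel, and all lie below 0.2% on the left and below 28 variants on the right.

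Variants with no genus name made up most of the members. Unclassified and uncultured Lachnospiraceae together had 804 variants and 62.9% of member reads. The unclassified share was 1.49% to 8.92% of reads in control males (median 2.91%, mean 3.76% ± 2.27, SD, n = 11) and 0.00439% to 4.71% in PAE males (median 0.979%, 1.72% ± 1.95, n = 10). In females it averaged 1.71% ± 1.31 in controls (n = 7) and 2.81% ± 1.91 in PAE (n = 9). The ranges of PAE and control overlapped in both sexes, and without the 9 libraries the PAE male mean was 3.42% ± 1.13 (n = 5).

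Uncultured Lachnospiraceae held 1.01% to 11.2% of reads in control males (median 1.74%, mean 2.91% ± 3.04, SD, n = 11) and 0.00336% to 2.71% in PAE males (median 0.703%, 0.970% ± 1.09, n = 10). They averaged 1.19% ± 1.04 in control females (n = 7) and 2.77% ± 2.12 in PAE females (n = 9). With the 9 libraries left out, the mean was 1.93% ± 0.625 in PAE males (n = 5) and 1.66% ± 0.818 in control females (n = 5). The highest value, in control male 35, came mainly from 1 variant. Variant 5 held 47596 reads there, 9.04% of the library, and 26 reads in all other libraries combined.

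Roseburia, a genus of butyrate formers, was found in 30 libraries. Its share ranged from 0.114% to 1.10% in control males (median 0.203%, mean 0.371% ± 0.346, SD, n = 11) and from 0 to 0.479% in PAE males (median 0.00736%, 0.151% ± 0.203, n = 10). In females it averaged 0.173% ± 0.193 in controls (n = 7) and 0.310% ± 0.352 in PAE (n = 9). All 5 PAE males with no Roseburia read belonged to the 9 libraries that stood apart, and without those the PAE male mean was 0.302% ± 0.189 (n = 5).

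The Eubacterium xylanophilum group, named for growth on xylan, ranged from 0 to 1.39% of reads. It had reads in 9 of 11 control males, 7 of 10 PAE males, 5 of 7 control females and 5 of 9 PAE females. Group means were 0.406% ± 0.449, 0.225% ± 0.299, 0.192% ± 0.241 and 0.309% ± 0.328 of reads in that order (SD). Of the 9 libraries that stood apart, 5 had traces of it, 59 reads together and at most 0.00958% of a library. Without the 9 libraries the order of the male groups turned, since the PAE male mean was then 0.448% ± 0.279 (n = 5), above the 0.406% of control males. PAE females 11 and 12, which did not stand apart otherwise, had no read of it.

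Acetatifactor had no read in any of the 9 libraries. It had reads in all 11 control males, with a mean of 0.0491% ± 0.0373 (SD), and in 4 of 10 PAE males, where the mean of 0.0299% ± 0.0715 rested on 0.230% in PAE male 25. Leaving out the 9 libraries brought the PAE male mean to 0.0598% ± 0.0962 (n = 5), above that of control males. Acetatifactor averaged 0.0255% ± 0.0554 in control females (n = 7) and 0.106% ± 0.168 in PAE females (n = 9). The other labels of known butyrate formers, the Eubacterium oxidoreducens, ventriosum and hallii groups, each held less than 0.01% of reads on average.

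Marvinbryantia, which includes acetogens, was uneven among libraries. In control males it ranged from 0 to 1.71% of reads, with a median of 0.0115% (mean 0.297% ± 0.550, SD, n = 11). The 3 highest of these were control males 35, 36 and 37, with 0.642%, 1.71% and 0.818%. PAE males reached 0.124% at most, with a median of 0.000512% (0.0151% ± 0.0388, n = 10), and without the 9 libraries the mean of the 5 others was 0.0300% ± 0.0532. In control females the mean of 0.104% ± 0.242 (n = 7) came largely from library 4 at 0.652%, and in PAE females the mean of 0.219% ± 0.425 (n = 9) came largely from libraries 26 and 29 at 0.645% and 1.21%. Variant 15 held 77.4% of Marvinbryantia reads.

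Among the code-named lineages, A2 was the most abundant. It ranged from 0.0255% to 3.75% in control males (median 0.388%, mean 0.891% ± 1.14, SD, n = 11) and from 0 to 0.762% in PAE males (median 0.0453%, 0.158% ± 0.243, n = 10). It averaged 0.180% ± 0.206 in control females (n = 7) and 0.236% ± 0.174 in PAE females (n = 9). The PAE male mean without the 9 libraries was 0.316% ± 0.267 (n = 5). The 3 highest A2 shares were all in control males numbered 31 to 33.

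FCS020 had reads in all 11 control males, from 0.0291% to 0.773% (median 0.238%, mean 0.256% ± 0.224, SD). In PAE males it ranged from 0 to 0.0990% (median 0.0177%, 0.0324% ± 0.0388, n = 10), and 4 of the 11 control males lay within that range. The averages in females were 0.0882% ± 0.0882 in controls (n = 7) and 0.136% ± 0.175 in PAE (n = 9). No FCS020 read was found in any of the 9 libraries, and without them the PAE male mean was 0.0647% ± 0.0276 (n = 5).

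GCA-900066575 averaged 0.512% ± 0.458 in control males, 0.182% ± 0.228 in PAE males, 0.305% ± 0.365 in control females and 0.492% ± 0.586 in PAE females (SD). UCG-006 averaged 0.269% ± 0.278, 0.174% ± 0.213, 0.277% ± 0.286 and 0.337% ± 0.251 in the same order. UCG-001 averaged 0.282% ± 0.389, 0.166% ± 0.493, 0.390% ± 0.750 and 0.503% ± 0.992. The PAE male means of these 3 lineages without the 9 libraries were 0.363% ± 0.186, 0.347% ± 0.163 and 0.329% ± 0.692 (n = 5), so that UCG-006 and UCG-001 were then higher on average in PAE than in control males. Single libraries weighed heavily in UCG-001: PAE male 16 held 1.57%, control female 30 held 2.05%, and PAE females 13 and 14 held 2.63% and 1.8%. UCG-010 was the rarest of the 14 labels averaging at least 0.01% of reads, with group means from 0.00493% to 0.0181% of reads.

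ASF356 was confined to few libraries. It held 0.547%, 0.360% and 0.400% of reads in control males 35, 36 and 37 and 0.145% in control female 34. The only other reads were 2 in PAE female 28, so ASF356 was not tested. Tuzzerella had reads in 25 libraries and averaged 0.101% ± 0.104 in control males, 0.0270% ± 0.0481 in PAE males, 0.0280% ± 0.0344 in control females and 0.0737% ± 0.0462 in PAE females (SD). Its PAE male mean without the 9 libraries was 0.0539% ± 0.0582 (n = 5). The 11 labels with a mean share under 0.01% ranged from UCG-004, at 0.00321%, down to Cellulosilyticum, with 2 reads.

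**Figure D4:**
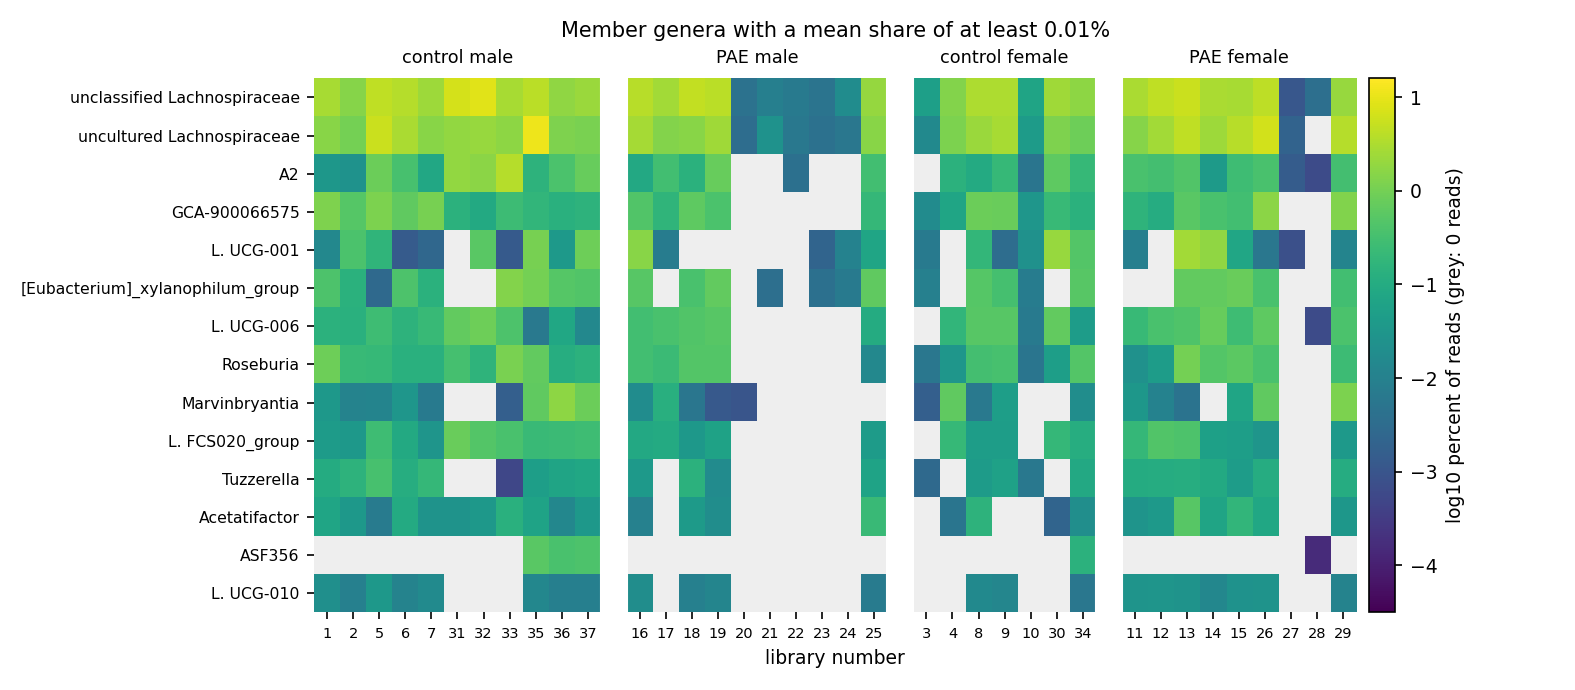
Share of reads (log10 percent, colour) of the 14 member labels with a mean share of at least 0.01%, one row per label and one column per library, with grey for 0 reads; "L." stands for Lachnospiraceae. Columns 20 to 24, 27 and 28 are mostly grey or dark, and ASF356 is coloured in 5 columns only.

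At genus level the comparison of PAE with control males was made with edgeR's quasi-likelihood test over 115 genera, 15 of them members, with Benjamini-Hochberg adjustment over all 115 and a threshold of 0.05. None of the 15 passed, against 13% of all genera tested (11.3% higher and 1.74% lower). The median log2 fold change of PAE over control was -1.38 over the members and -0.29 over all genera, and 13 of the 15 members were below 0. Only 3 members had an unadjusted p under 0.05. Marvinbryantia had a log2 fold change of -4.48 ± 1.96 (SE) and FCS020 one of -3.22 ± 1.40, both with an edgeR adjusted p of 0.128. A2 had -2.67 ± 1.31 with an edgeR adjusted p of 0.174.

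Other tests gave other counts for the same 15 labels in males. DESeq2 called 0. limma on centred log-ratios called 6 lower in PAE, namely GCA-900066575, FCS020, Roseburia, A2, Acetatifactor and unclassified Lachnospiraceae, where 13.9% of all genera were called lower. A permutation test of log shares called these 6 and uncultured Lachnospiraceae lower, against 22.6% of all genera. Without the 9 libraries edgeR again called 0 of the 15, with 1 at an unadjusted p under 0.05. Over all 103 genera tested there it called 1 higher and 0 lower. FCS020 then had a log2 fold change of -1.96 ± 0.86 (SE) and an edgeR adjusted p of 0.474. UCG-001, UCG-006, Acetatifactor and the Eubacterium xylanophilum group turned from lower to higher in PAE males when the 9 libraries were left out.

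In females, edgeR called none of the 15 member genera in PAE against control, where 4.35% of all genera passed (2.61% higher, 1.74% lower). None had an unadjusted p under 0.05, and DESeq2, limma on centred log-ratios and the permutation test called 0 as well. The largest log2 fold change belonged to Acetatifactor, at 1.96 ± 1.66 (SE, edgeR adjusted p = 0.927). The median over the members was 0.40, against 0.03 over all genera. For the interaction of exposure and sex, edgeR called 0 of 15 (background 1.74%), with 0 at an unadjusted p under 0.05, and DESeq2 called 0. For males against females, 0 of 15 were called in controls (background 4.35%, with 1.74% higher and 2.61% lower in males; 0 at an unadjusted p under 0.05) and in PAE (background 0%; 1 at an unadjusted p under 0.05) by edgeR, and by DESeq2 as well.

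Single variants were tested where they had at least 5 reads in at least 7 libraries. This left 122 of the 1190 members, holding 78.1% of member reads, among 553 variants in all. A variant that reached 7 libraries only through the group, or through the groups of 1 exposure, where it was high had to differ from the others, so counts over the 122 describe the tested variants only and not the members as a whole.

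The 10 most abundant members were not called in any comparison. Variant 1, unclassified, had reads in 23 libraries and peaked at 3.46% in control male 31. It averaged 0.400% ± 1.04 in control males, 0.169% ± 0.223 in PAE males, 0.162% ± 0.239 in control females and 0.450% ± 0.452 in PAE females (SD). Variant 2, unclassified, reached 4.71% in control male 32 and had a log2 fold change of -3.02 ± 1.52 (SE) in PAE males, with an edgeR adjusted p of 0.236. Variant 8 of GCA-900066575 averaged 0.377% ± 0.443 in control males and 0.0286% ± 0.0461 in PAE males (log2 fold change -3.76 ± 1.87, edgeR adjusted p = 0.229). Variant 7, the most widespread, ran the other way, with 0.146% ± 0.0870 in control males and 0.269% ± 0.374 in PAE males, and it did not pass either (log2 fold change 0.85 ± 1.30, edgeR adjusted p = 0.828). Variants 3, 4, 6, 9 and 10 had edgeR adjusted p-values between 0.572 and 0.922 in males, and variant 5 was not tested because it had reads in 4 libraries.

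In PAE against control males, 15 of the 122 tested members were lower (12.3%) and 0 were higher. Over all 553 variants tested, 7.96% were lower and 4.16% were higher. The median log2 fold change was -1.19 over the members and -0.71 over all variants, and 93 of the 122 members were below 0. Of the 15 variants, 11 had no genus name, and the others belonged to A2, Roseburia, UCG-006 and FCS020. In 13 of them no PAE male had a read, and these 13 were all the tested members with 0 reads in PAE males. A count of 0 over the 10 PAE males allows a share of up to 9.06e-05% of reads. Folds against a group at 0 are given as "at least", computed as if that group had 3 reads in total, and cover counting error only.

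Variant 94, an uncultured Lachnospiraceae, had the smallest edgeR adjusted p in males, 0.00326. It was found in 9 of 11 control males at up to 0.238% of reads (median 0.0102%, mean 0.0440% ± 0.0763, SD) and in 0 of 10 PAE males, at least 486-fold lower. Variant 110, unclassified, was found in 9 of 11 control males (median 0.0117%, highest 0.0758%) and in no PAE male, at least 264-fold lower (edgeR adjusted p = 0.00443). Variant 115 of FCS020 was found in 8 of 11 control males (median 0.0310%, highest 0.0600%) and in no PAE male, at least 324-fold lower (edgeR adjusted p = 0.00443). In each of the 3, the control males without a read overlapped the PAE males at 0. All 3 reached the filter through control libraries alone, so the filter in part set these differences and their p-values.

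Variant 57 of UCG-006 had reads in 7 of 11 control males, up to 0.234%, and variant 34, uncultured, in 9 of 11, up to 0.656%. Both had 0 reads in PAE males and an edgeR adjusted p of 0.00443. Variant 57 reached the filter through control libraries alone, so the filter in part set its difference. In variant 34, PAE female 26 held 561 reads, the only reads in any PAE mouse. Variant 34 reached the filter only with the control males, so the filter in part set its difference as well. The log2 fold change of variant 32, the main Roseburia variant, was -5.55 ± 1.78 (SE, edgeR adjusted p = 0.029). It was in all 11 control males, from 0.00456% to 1.02% (median 0.0710%), and in 3 of 10 PAE males, up to 0.0238%. Control male 33 held 61.9% of its reads, and without that library the edgeR adjusted p was 0.0804. Variant 19 of A2 was found in 5 of 11 control males, with 2.49% in control male 33, and in 1 of 10 PAE males with 8 reads (log2 fold change -9.61 ± 2.64, edgeR adjusted p = 0.00812). It too reached the filter only with the control males.

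The remaining 8 lower variants in males were 98, 100, 125, 126, 129, 152, 178 and 181, all without a genus name. Their mean share in control males lay between 0.00446% and 0.0327%, and they were found in 2 to 7 of the 11 control males and in 0 of the 10 PAE males. All 8 reached the filter only with the control males, so the filter in part set their differences. Of the 15 variants called, 9 had reads in both runs of control males. Variants 98, 126, 152, 178 and 181 had reads only in control males numbered 30 to 37, and variant 100 only in those numbered 1 to 10.

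Without the 9 libraries, which leaves 5 PAE males, edgeR called 0 of 122 in males, with 18 at an unadjusted p under 0.05. Over all 527 variants tested there it called 1 higher and 0 lower. The calls were thus lost across the series and not in the members alone. The fitted log2 fold changes of the 15 variants ran from -12.14 to -4.54, against -12.05 to -5.55 over all libraries. Their edgeR adjusted p-values lay between 0.175 and 0.291. These fitted values include groups at 0 reads and are no bounds. In 13 of the 15 no PAE male had a read, so leaving out libraries could not turn their sign. The number of calls also changed with the runs of library numbers. PAE numbered 11 to 19 alone gave 0 calls (19 at an unadjusted p under 0.05), and PAE numbered 20 to 29 alone gave 28, all lower (26.7% of the members tested, against 17.6% of all variants). Controls numbered 1 to 10 alone gave 3, all lower (2.94% against 1.22%). Controls numbered 30 to 37 alone gave 25, of which 13 were higher (11.6% against 20.3%) and 12 lower (10.7% against 8.72%). By DESeq2 16 were lower (13.1% against 7.96% of all variants) and by limma on centred log-ratios 17 (13.9% against 7.78%), with 13 and 7 of the 15 among them. A permutation test of log shares called 10 lower (8.2% against 3.8%), with 5 of the 15 among them. limma with the run of library numbers as a random block called 0, and no share over all variants is given for it.

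In PAE against control females, 18 of the 122 tested members passed. Lower were 10, or 8.2%, against 8.32% of all variants tested. Higher were 8, or 6.56%, against 3.98%. The median log2 fold change was 0.79 over the members and 0.26 over all variants. The lower variants were 57, 78, 94, 100, 110, 115, 125, 126, 152 and 181, and all but variant 78 had 0 reads in every PAE female.

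Variant 57 of UCG-006 was found in 5 of 7 control females (median 0.0250%, highest 0.343%) and was at least 1004-fold lower in PAE females (edgeR adjusted p = 0.0158). Variant 110 was found in 3 of 7 control females, up to 0.0703%, and was at least 332-fold lower (edgeR adjusted p = 0.0158). Variants 57 and 110 reached the filter through control libraries alone, so the filter in part set these differences. Some of the calls rested on few animals. Variant 181 was called with an edgeR adjusted p of 0.0378 on 92 reads in control female 34, the only control female with any. Variant 78 of UCG-001 held 74.2% of its reads in control female 30 (log2 fold change -7.999 ± 2.63, SE, edgeR adjusted p = 0.037). It reached the filter only with the control females.

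The 8 higher variants in females were 55, 79, 92, 104, 128, 149, 168 and 174, and all 8 had 0 reads in the 7 control females. A count of 0 there allows a share of up to 8.42e-05% of reads. Variant 55, uncultured, was found in 7 of 9 PAE females (median 0.0134%, highest 0.666%) which puts it at least 1501-fold above controls (edgeR adjusted p = 0.0185). Variant 79 of Roseburia was found in 5 of 9 PAE females (median 0.00963%, highest 0.136%), at least 363-fold above controls (edgeR adjusted p = 0.0319). Variant 104, uncultured, was found in 3 of 9 PAE females, up to 0.251%, at least 545-fold above controls (edgeR adjusted p = 0.0226). Variants 55, 79, 104, 168 and 174 reached the filter only with the PAE females, so the filter in part set these differences and their p-values. None of the 8 was absent from control mice as such, since all 8 had reads in control males: variant 149 in 7 of the 11, and variants 55, 92 and 128 in 4.

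Without the 9 libraries, which leaves 5 control and 7 PAE females, edgeR called 0 of 122 in females, with 25 at an unadjusted p under 0.05. Over all 527 variants tested there it called 0 higher and 0 lower. The fitted log2 fold changes were then -11.49 to -5.91 for the lower variants (-11.10 to -5.18 over all libraries) and 6.61 to 12.40 for the higher ones (6.21 to 12.01), with edgeR adjusted p-values between 0.0657 and 0.117. The sign could not turn in the 9 lower variants without a read in PAE females. Nor could it in the 8 higher ones, which had no read in control females. A permutation test of log shares, exact over all splits, called 0 of the 122, with 14 at an unadjusted p under 0.05. The call went to 13 variants by DESeq2 (7 higher, 5.74% against 5.06% of all variants, and 6 lower, 4.92% against 6.33%). It went to 3 by limma after the centred log-ratio transform (2 higher, 1.64% against 0.904%, and 1 lower, 0.82% against 0.723%). Leaving out control female 34 left 7 calls and leaving out control female 30 left 11. Of the 18 variants, 10 lost their call when some single library was left out: 78 (edgeR adjusted p up to 0.268), 128, 152, 168 and 174 (each up to 0.0937), 92 (0.0862), 149 (0.0854), 79 (0.0853), 181 (0.0598) and 104 (0.0539). The calls of 57, 94, 100, 110, 115, 125 and 55 held in each of these fits. Variant 126 kept its call where it was tested. It had reads in 7 libraries only, so it fell below the filter when any of these was left out.

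Variants 57, 94, 100, 110, 115, 125, 126, 152 and 181 were lower in PAE in both sexes, which is 60% of the variants called in males and 50% of those called in females. The overlap over all tested variants is not given here. The members called in both sexes had no read in any of the 19 PAE libraries, where a count of 0 allows a share of up to 3.90e-05% of reads. Variant 178 also had none. Absence from all PAE libraries was thus seen in 10 of the tested members (8.2%), against 17 of the 431 other tested variants (3.94%). These 10 members reached the filter through control libraries alone, so their difference from PAE is in part set by the filter. Variants 57 and 94 were found in 12 control libraries each, and both runs of control numbers held them.

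**Figure D5:**
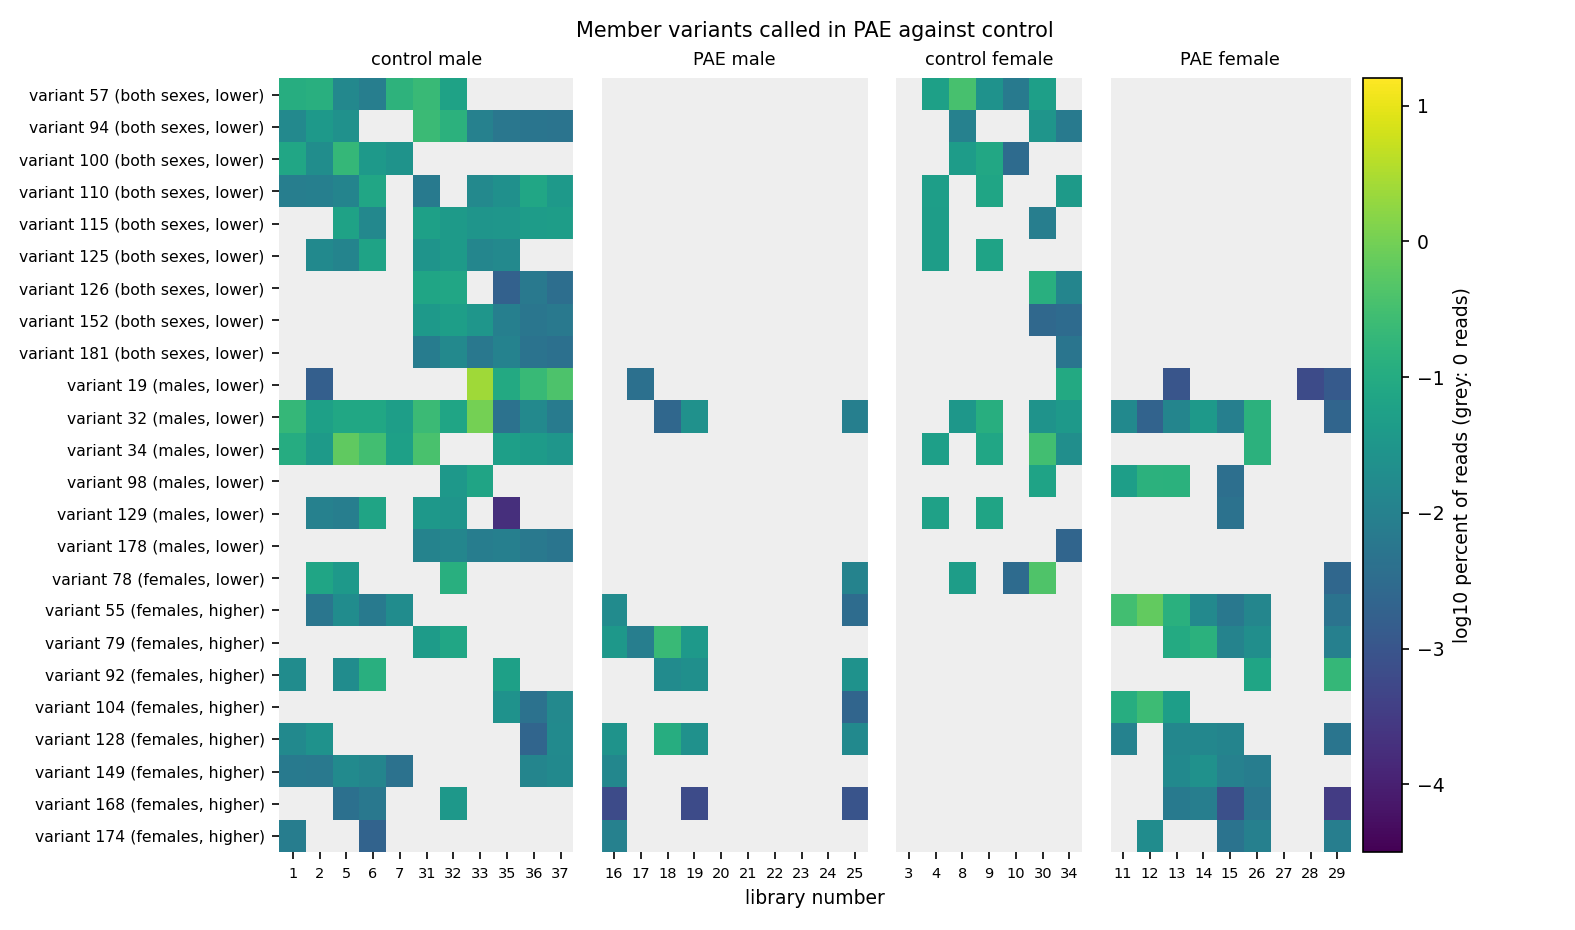
Share of reads (log10 percent, colour; grey for 0 reads) of the 24 member variants called in PAE against control in males, females or both, one row per variant and one column per library. The 9 variants called in both sexes are coloured only in control columns, and the 8 called higher in females are grey in all 7 control females but coloured in some control males.

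The interaction asked whether the difference between PAE and control was the same in males and females. edgeR called 0 of 122 members and 0% of all variants, and 20 members had an unadjusted p under 0.05, all with a more negative difference in males. The matching count and direction over all variants are not given, so these 20 are no result about the members. By DESeq2 11 were called, all negative (9.02% against 3.8% of all variants), and by edgeR with TMMwsp scaling 4 (3.28% against 1.27%). The 3 smallest p-values, none of which passed, belonged to variants 104, 55 and 168, with edgeR adjusted p-values of 0.0582, 0.0616 and 0.0616. All 3 were without a read in control females, and the median log2 difference was -2.22 over the members and -0.73 over all variants.

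Males and females were also compared within each exposure. In controls edgeR called 0 of 122 members, where 0.904% of all variants passed, and 9 members had an unadjusted p under 0.05, all higher in males. By DESeq2 6 were higher in males (4.92% against 3.25% of all variants). Variants 149, 168 and 92 came closest, with edgeR adjusted p-values of 0.0933, 0.0984 and 0.114. In PAE mice edgeR called 0 of 122, with a background of 0%, and 9 had an unadjusted p under 0.05, all lower in males. By DESeq2 5 were lower in males (4.1% against 1.27% of all variants). Variants 34, 98 and 104 came closest, with edgeR adjusted p-values of 0.0851, 0.0851 and 0.170. For neither exposure is the count or direction at an unadjusted p given over all variants, so the 9 members in each are no result about the members.

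The tested members were sparser in the 9 libraries than other tested variants. Of the 122, 93 (76.2%) had 0 reads in all 9, against 159 of the 431 others (36.9%). The 9 stood apart in the members' summed share, so this contrast was in part built in. The NK4A136 group was also low there, with a mean of 0.208% of reads against 11.4% in the other libraries. Its variants are not counted separately here, so the trait is not shown to be particular to the members. The 1030 member reads found in the 9 libraries came from 78 variants, of which 34 also occurred elsewhere, and no variant had more than 61 reads in 1 of them. Control females 3 and 10 kept more members than the exposed libraries of this set, with 25 and 28 variants, against 4 to 11 in the 7 PAE libraries.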

How the data were processed

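Stool 16S rRNA amplicons of 37 libraries were used as the authors deposited them, as a table of unnormalised read counts for each variant beside a table of its taxonomy. Cutadapt, Bowtie2 and GRCm39 stand in the submitters' processing notes, with neither role nor version. For the denoiser, the classifier and its reference the sources used here give nothing. Groups came from the labels. In 2 control male libraries, 5 and 6, title and description exchange names, so their columns were assigned to the group only. Rows that were unassigned, eukaryotic, chloroplast or mitochondrial or had no taxonomy (15 rows, 0.00943% of reads) were left out.

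Counts per variant and per genus, uncultured and unclassified rows kept as separate genera, were tested where at least 5 reads occurred in at least 7 libraries, with the quasi-likelihood test of edgeR 4.0.16 (R 4.3.3) after TMM normalisation, fitted to 4 group means and Benjamini-Hochberg adjusted over all features tested. Alternatives were DESeq2 1.42.0, scaling by TMMwsp or by library totals, limma 3.58.1 with centred log-ratios (0.5 added to each count) or with runs of library numbers as random block, filters of 1 read in 2 libraries and of 10 reads in 18, all rows, subsets of libraries, and two-sided permutation tests of log2(percent + 0.001), exact where a group had under 10 libraries and with 100000 permutations otherwise. The fitting script was tested on simulated data with changes in PAE males. edgeR recovered 12 of 84 variants with a simulated log2 fold change of 3 in either direction and 67 of 99 at 6. It called 8 of 334 unchanged variants. For genera it recovered 5 of 16 and 7 of 7, and called 0 of 85 unchanged ones. A count of 0 calls is therefore no sign that shares were equal.

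The members, lists and alternatives were chosen with earlier results of these data known. Added after seeing the files were leaving out the 9 libraries with Robinsoniella reads, merging uncultured with unclassified rows, and run subsets of the summed share. The text names genera averaging 0.01% of reads or more, the 10 most abundant variants, up to 8 called variants per direction and comparison by adjusted p, the 3 smallest p-values where none was called, and the main tested variant of each such genus. Called variants 19, 129 and 181, and the calls of 98, 100, 126, 32 (males) and 152 (females), lie outside the rule for their comparison and were named after their values were seen, to complete a count.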

Additional observations from a re-analysis of the deposited data

Results flagged for a closer look

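In 47 groups of 4 to 10 libraries examined for the genus shares, the summed share and the number of variants, 12 had a library far from the rest of its group, each time the highest; chance flags about 1 in 20 such groups. Shares with many values at or near 0 are prone to this. The cause was not tested for any of them.

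Among PAE males, A2 was 0.762% of reads in library 19 (next 0.297%), UCG-001 was 1.57% in library 16 (next 0.0718%), and Marvinbryantia was 0.124% in library 17 (next 0.0192%). Tuzzerella was 0.149% in library 18 (next 0.0651%), and Acetatifactor was 0.230% in library 25 (next 0.0396%). Of the 10 PAE males, 5 belong to the 9 libraries in which the members were nearly missing.

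Among control females, library 30 held both the highest A2, 0.606% (next 0.206%), and the highest UCG-001, 2.05% (next 0.463%). Marvinbryantia was 0.652% in library 4 (next 0.0483%), Acetatifactor was 0.150% in library 8 (next 0.0207%), and ASF356 was 0.145% in library 34 with 0 in the other 6. Among PAE females, Acetatifactor was 0.528% in library 13 (next 0.181%), and ASF356 was 0.000159% in library 28, which is 2 reads, with 0 in the other 8.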

How the results depend on the processing

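For variants in PAE against control males (15 calls), TMMwsp, library totals and all rows gave 15, DESeq2 16, limma on centred log-ratios 17 and the permutation test 10. In females (18 calls) the corresponding edgeR settings gave 17 to 18 and DESeq2 13. Counts moved further with the looser filter (males 99, of which 91 lower; females 92, of which 68 lower; 231 tested) and the stricter one (0 and 0; 55 tested, with 6 and 0 at an unadjusted p under 0.05). One sex alone gave 7 and 1, controls 1 to 10 gave 3 and 2, controls 30 to 37 gave 25 and 7, PAE 11 to 19 gave 0 and 0, PAE 20 to 29 gave 28 and 0, and leaving out the 9 libraries or taking runs as a random block gave 0 and 0. In females limma on centred log-ratios gave 3 and the permutation test 0. Leaving out 1 library gave 11 to 21 calls in males and 7 to 19 in females. For the interaction, where edgeR called 0, TMMwsp gave 4, DESeq2 11 and leaving out 1 library 0 to 3 (3 without PAE male 16 or PAE female 28). For males against females, DESeq2 gave 6 in controls and 5 in PAE, the looser filter 1 in controls, and leaving out 1 library 0 to 1 in controls and 0 to 5 in PAE (5 without PAE male 25). For genera in males, where edgeR called 0, limma on centred log-ratios gave 6, the permutation test 7, the looser filter 5, PAE 20 to 29 gave 2 (Roseburia and Marvinbryantia) and leaving out 1 library 0 to 1 (Marvinbryantia without PAE male 17); for males against females in controls the looser filter gave 1. No share over all features is given for the looser and stricter filters, a single sex alone or runs as a random block. Nor is it given for PAE 11 to 19 in males, the run subsets in females and of genera, and the single-library fits. The counts of these settings therefore cannot be read as a result about the members. The same holds throughout for counts at an unadjusted p under 0.05, which are given for the members alone. No called variant turned its direction, but most had 0 reads in 1 of the 2 groups compared, and their direction could not turn. Log2 fold changes of genera in males that turned from below to above 0 were UCG-001 (0.75 with controls 1 to 10, 0.38 with PAE 11 to 19, 0.23 without the 9 libraries), the Eubacterium xylanophilum group (0.068 with controls 1 to 10, 0.22 without the 9), UCG-006 (0.34 with PAE 11 to 19, 0.31 without the 9) and Acetatifactor (0.39 with PAE 20 to 29, 0.58 without the 9). TMMwsp shifted the median log2 fold change of all variants from -0.71 to -0.89 in males and from 0.26 to 0.02 in females. As a share of Lachnospiraceae reads the members averaged 45.3% in control males, 21.1% in PAE males, 25.4% in control females and 35.99% in PAE females. The summed share in PAE males was 8.33% in libraries 11 to 19, and control males held 83.4 variants at 5 or more reads. The cause of these changes was not tested. No paired analysis was possible because every library has a number of its own and no number is shared between groups.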

Other observations

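Some values belong to no comparison above. Of the 122 tested members, 78 had reads in all 4 runs of library numbers, as had 299 of the 431 other tested variants. The few members in control females 3 and 10 were partly those of their neighbours: 13 of the 25 variants in control female 3 and 22 of the 28 in control female 10 also occurred in other controls numbered 1 to 10.

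Among the rare labels, the Eubacterium ventriosum group had 2 variants with 666 reads in 3 libraries. Tyzzerella had 1 variant with 125 reads in 3 libraries, and Sellimonas had 1 variant with 47 reads in 1 library.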
